A study of Mus musculus with 25 samples.

Results

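The 40 genes described here carry out and control the division of cells. They were taken by name from a table of read counts over 24061 mouse genes, and all 40 were found in it. Of them, 23 act mainly in mitosis, 13 in DNA synthesis (S phase), and 4, namely Ccne1, Ccne2, Ccnd1 and E2f1, in the passage of a cell through G1 into S phase. Mki67, Mcm2 and Ccnb1, a common marker of dividing cells, a replication gene and a mitotic cyclin, were detected in every library. No member was at 0 in any of the 21 RNA libraries, the lowest count of a member in a library was 16, and all 40 passed the filter on low counts in every comparison.

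In a dividing cell, cyclins D and E activate kinases that release E2F factors from their inhibitors, and E2F factors switch on the genes of DNA replication. The genes of mitosis are switched on later, by complexes that contain B-MYB and FOXM1, and are held down in resting cells by the DREAM complex, which binds the CHR element in their promoters. In skin, the stem cells of the hair follicle rest for long periods between growth phases, while those of the epidermis divide to renew it, and both are recruited to divide when skin is wounded.

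The RNA libraries came from cells sorted out of the skin or tumours of female B6 mice, with an age of 60 days after birth in the labels, and fall in 3 sets that the submitters named CL, BK and DS. In CL there were 2 libraries, A and B, of each of 4 groups. Wounded hair follicle stem cells (HFSC) were integrin alpha 6 high and YFP+ in Sox9CreER;R26-YFP mice, so that their label follows cells in which a Sox9-driven recombinase had been active, and wounded epidermal stem cells (EpdSC) were the integrin alpha 6 high, YFP- cells of such mice. HFSC were integrin alpha 6 high, CD34+ and Sca1-, and EpdSC were integrin alpha 6 high, CD34- and Sca1+. BK held 1 library of wounded EpdSC, with integrin alpha 6 alone in its sort label, and 2 libraries each of HFSC and EpdSC with the CL gates. The counts of the wounded library are headed BK05_WdEpiA5pos3, and what the ending A5pos3 stands for was not checked. All CL and BK cells were also sorted as lineage negative. DS held GFP+ cells of grafted tumours of the genotypes TbrKO, HRas TbrKO and HRas, each as 1 integrin alpha 6 high and 1 integrin alpha 6 low library, and 1 library each of HFSC and EpdSC whose titles carry the name Tbr, from skin and with the gates of HFSC and EpdSC in CL. ATAC-seq, which marks open chromatin, was made from 4 pooled samples of CD1/B6 mice, of which HFSC and EpdSC were from mice of 50 days: integrin alpha 6 high, integrin B1 high, GFP+ cells of HRas squamous cell carcinoma, integrin alpha 6 positive, Sca1 positive cells of wounds, HFSC and EpdSC.

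Each RNA library held between 14216472 and 36425082 counts over genes. Keratinocyte markers were high in every library, with a summed level between 23610 and 154300 CPM (counts scaled to the size of the library). Hras was at 138 and 154 CPM in the TbrKO tumour libraries and between 214 and 276 CPM in the 4 tumour libraries whose label names HRas. In skin and wound libraries, whose labels do not name HRas, it ran from 133 CPM (Tbr EpdSC) to 666 CPM (CL wounded EpdSC A). Within DS, the tumour libraries named HRas lay above the TbrKO tumours and above Tbr HFSC (158 CPM) and Tbr EpdSC. Across the sets the level of Hras does not mark the genotype. The labels do not spell out the gene behind Tbr, so its loss was not checked here. The labels do not state that replicate libraries are from different animals. A p-value here thus measures the spread between libraries, which may be technical. Among the tumour genotypes and gates no library was repeated. In those comparisons the spread is how far the gate difference varies between genotypes. In libraries of whole sorted populations, fewer dividing cells and less RNA of these genes per cell cannot be told apart.

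Across all 21 libraries the extreme levels of many members fell in the same few libraries. The mitotic genes mostly varied more widely than the S phase genes. The lowest level of 22 members, 20 of them mitotic, was in BK HFSC 2, and that of 11 members was in the Tbr HFSC library. The highest level of 19 members, 14 of them mitotic, was in the BK wounded EpdSC library, and that of 15 members was in BK EpdSC 1. The ratio of the highest to the lowest library was 59.2 for Cenpf, a protein of the outer kinetochore, and 54.4 for Mki67. It was 4.53 for Mcm4, a subunit of the replicative helicase.

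**Figure D1:**
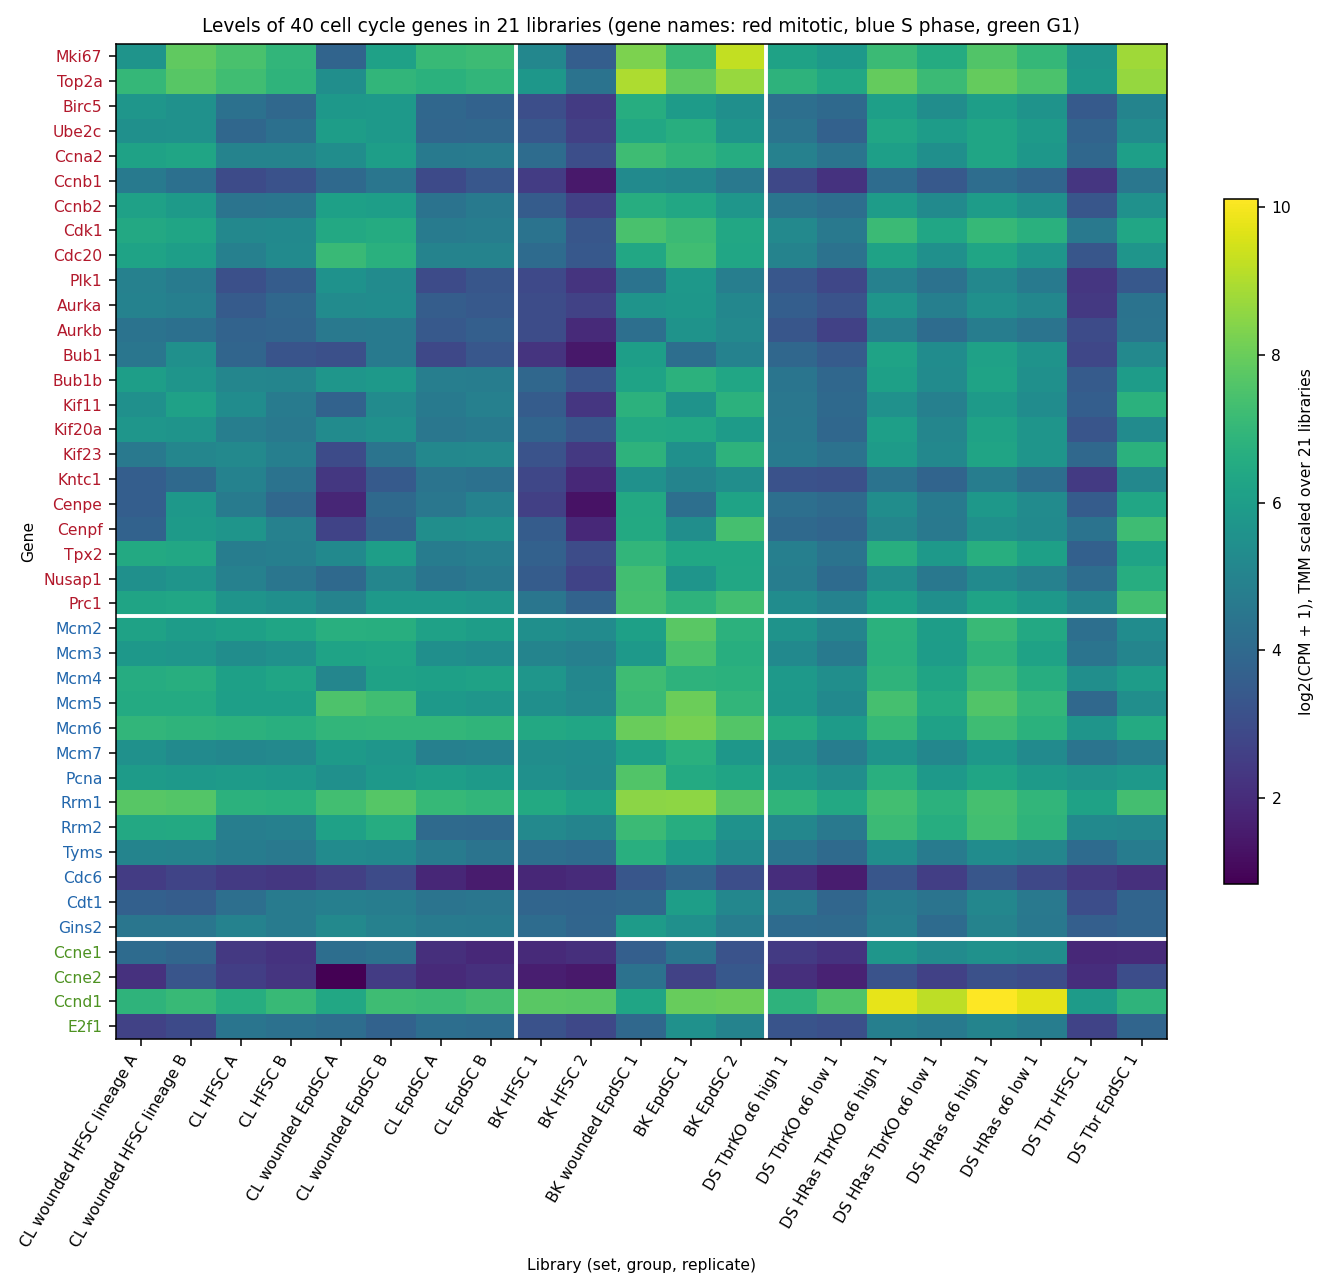
Level of the 40 genes (rows) in the 21 RNA libraries (columns), as log2(CPM + 1) in colour, with the mitotic, S phase and G1 genes in separate blocks and the CL, BK and DS sets side by side. Colours are to be compared along a row and not between genes. Low levels are dark, and the darkest columns among the mitotic rows are BK HFSC 2, BK HFSC 1 and the Tbr HFSC library.

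A score, the mean log2(CPM + 1) of the members in a library, gave the mitotic and S phase genes separately. The mitotic score was 3.575 and 2.655 in BK HFSC 1 and 2 and 3.67 in Tbr HFSC, and these were the 3 lowest libraries. It was 6.07 and 6.25 in the BK EpdSC libraries and 6.51 in BK wounded EpdSC, which were the 3 highest. The 8 CL libraries lay between 4.55 and 5.71. The S phase score had a narrower range, between 4.48 in Tbr HFSC and 6.77 in BK EpdSC 1, and the balance of the 2 scores differed between libraries of 1 group. Mitotic minus S phase was -0.70 in BK EpdSC 1 and 0.22 in BK EpdSC 2, and it was -1.11 in CL wounded EpdSC A and -0.54 in CL wounded EpdSC B.

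**Figure D2:**
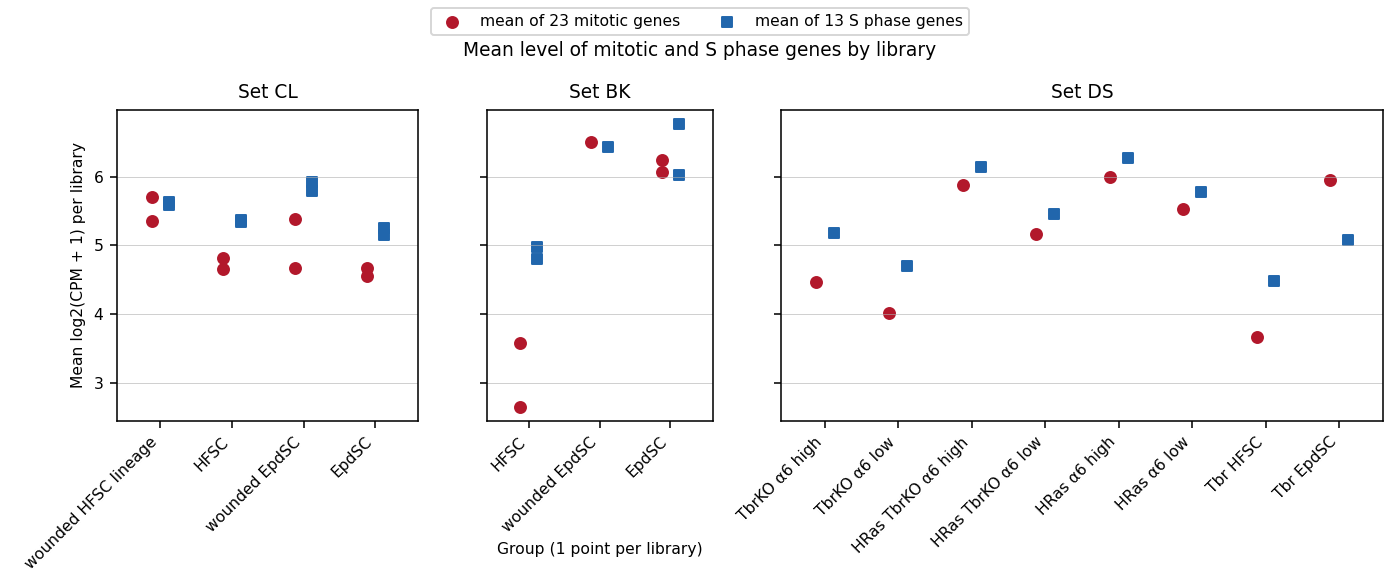
Mean log2(CPM + 1) of the 23 mitotic and the 13 S phase genes in each library, with 1 point per library and a panel for each of the CL, BK and DS sets. HFSC lie far under EpdSC in BK and beside them in CL, and the TbrKO tumour libraries, with mitotic scores of 4.47 and 4.02, lie under the other 4 tumour libraries.

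The stretch just before the transcription start was read for the 32 members that have an entry in the RefSeq promoter table (build GRCm38.p6). Ccna2, Aurkb, Kif20a, Tpx2, Mcm4, Gins2, Ccne2 and Ccnd1 have none there. Over the 250 bases before the start, on both strands, the CHR element TTTGAA stood in 9 of 19 mitotic and 1 of 11 S phase promoters, against 13.1% of the promoters of genes tested in CL and 18.3% of all. Any of 4 E2F motifs (TTTCCCGC, TTTGGCGC, TTTCGCGC or TTTGCCGC) stood in 1 of 19 mitotic and 4 of 11 S phase promoters, against 3.6% and 2.2%. The CCAAT box stood in 17 of 19 mitotic and 8 of 11 S phase promoters, against 39.6% and 37.5%. A match of letters is a description and not a shown binding site. Of the 5 promoters printed here, 4 are of mitotic members with the CHR element whose values are given in the comparisons, and Mcm6, a subunit of the replicative helicase, shows the E2F motif. Each is given as the 120 bases before the start, in the direction of transcription, with CHR matches in capitals in the first 4 (TTCAAA is the element on the other strand) and E2F matches in capitals in Mcm6, where 2 matches overlap in the first run.
Cdk1, chr10:69352913-69353032, minus strand: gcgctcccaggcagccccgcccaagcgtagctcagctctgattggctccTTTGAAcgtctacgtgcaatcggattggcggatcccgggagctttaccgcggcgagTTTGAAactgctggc
Cdc20, chr4:118437344-118437463, minus strand: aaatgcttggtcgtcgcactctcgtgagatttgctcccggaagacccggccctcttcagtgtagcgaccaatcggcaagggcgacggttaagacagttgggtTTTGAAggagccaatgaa
Ube2c, chr2:164769809-164769928, plus strand: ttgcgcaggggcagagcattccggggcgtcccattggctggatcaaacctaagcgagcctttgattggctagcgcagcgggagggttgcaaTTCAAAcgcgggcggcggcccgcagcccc
Mki67, chr7:135716380-135716499, minus strand: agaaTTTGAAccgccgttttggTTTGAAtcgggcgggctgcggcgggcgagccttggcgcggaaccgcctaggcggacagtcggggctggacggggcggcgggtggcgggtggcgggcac
Mcm6, chr1:128359706-128359825, minus strand: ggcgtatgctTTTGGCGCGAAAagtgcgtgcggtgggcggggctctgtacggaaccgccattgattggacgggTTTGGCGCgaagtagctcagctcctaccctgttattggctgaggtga

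Most of these promoters were open in every population. An ATAC-seq peak overlapped the window from 250 bases before to 50 bases after the start in 30 of 32 members in tumour cells, 31 in wound cells, 32 in HFSC and 26 in EpdSC. The share over all 27025 genes with an entry was highest in HFSC, at 42.0%, and lowest in EpdSC, at 30.0%, and over 10971 genes tested in CL it was 73.9% in tumour cells, 77.1% in wound cells, 80.2% in HFSC and 59.8% in EpdSC. The EpdSC list held 25742 peaks in all, against 54201 to 56865 in the other 3 lists, so the lower number in EpdSC came with a shorter list. Mki67 had no peak in this window in tumour and wound cells, and Mcm2 had none in tumour cells and EpdSC. Top2a, Birc5, Ccnb2, Cdc6 and Cdt1 had none in EpdSC. In a window of 1000 bases on each side of the start, all 19 mitotic members, Mki67 included, had a peak in tumour and in wound cells, and the members with a peak were 31 in tumour cells, 32 in wound cells, 32 in HFSC and 26 in EpdSC. Counting only peaks with a -log10 q of at least 5, those in the first window were 22 in EpdSC. At the Cdk1 promoter printed above, the authors' fold enrichment was 8.31 in tumour cells, 11.2 in wound cells, 11.5 in HFSC and 7.27 in EpdSC, each list scored separately and without a replicate.

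In BK, nearly every gene of the division cycle was lower in HFSC than in EpdSC, and the mitotic genes differed most. Of the 40 members 35 were lower and 0 higher (edgeR, adjusted p under 0.05), against 6.47% lower and 7.91% higher among the 14663 genes tested. All 23 mitotic genes, 9 of 13 S phase genes and 3 of 4 G1 genes were lower. The median log2 fold change was -3.12 for the mitotic genes and -1.58 for the S phase genes, beside -0.03 for all genes tested. Both HFSC libraries lay below both EpdSC libraries for all 40 members, against 28.3% of all genes tested.

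The mitotic kinases and their partners show the size of the difference. Cdk1, the kinase that starts mitosis, was at 19.6 and 9.11 CPM in HFSC, against 143 and 82.5 CPM in EpdSC (-2.99 ± 0.50, standard error, edgeR adjusted p = 0.0138). Plk1, a kinase of spindle assembly and mitotic exit, was at 6.43 and 3.67 CPM in HFSC, against 54.2 and 27.1 CPM in EpdSC (-3.02 ± 0.49). Birc5, the survivin subunit of the chromosomal passenger complex, was at 7.49 and 4.48 CPM in HFSC, against 59.9 and 42.9 CPM in EpdSC (-3.12 ± 0.39, edgeR adjusted p = 0.0062). In all 3 genes, both HFSC libraries lay far under both EpdSC libraries, and HFSC 2 was the lower of its pair. Ube2c, which hands ubiquitin to the targets of the anaphase-promoting complex, fell by 3.39 ± 0.49, and Kif11, the motor that pushes spindle poles apart, fell by 3.46 ± 0.64 on the log2 scale.

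The largest estimates also carried the largest errors. Mki67 was at 34.2 and 11.25 CPM in HFSC, against 139 and 612 CPM in EpdSC (-4.08 ± 0.89, edgeR adjusted p = 0.0321). Cenpf was at 10.75 and 2.78 CPM in HFSC, against 41.8 and 164 CPM in EpdSC (-3.96 ± 0.91). The ratio of EpdSC 1 to EpdSC 2 was 0.227 for Mki67, the widest gap of that pair. In the EpdSC pair, 5 members were more than 2-fold higher in library 1 and 5 in library 2. In the HFSC pair, 12 members were more than 2-fold higher in library 1 and 0 in library 2. The difference between EpdSC 1 and 2 had a Spearman correlation of -0.44 with the span of the gene in the genome over 9526 genes and -0.56 over 39 members. That of HFSC against EpdSC was -0.17 over all genes and -0.34 over the members, a description whose part in the result was not tested.

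Replication genes differed less, and not all of them passed. Mcm5, a subunit of the replicative helicase, was at 43.5 and 36.2 CPM in HFSC, against 259 and 122 CPM in EpdSC (-2.27 ± 0.44, edgeR adjusted p = 0.0217). The other helicase genes Mcm3 (-2.21), Mcm2 (-1.97), Mcm6 (-1.58) and Mcm4 (-1.40) were lower too, while Mcm7 (-0.97, edgeR adjusted p = 0.162) did not pass. Pcna, the sliding clamp of DNA polymerase (-1.01, edgeR adjusted p = 0.0745), Rrm2, the regulated subunit of ribonucleotide reductase (-1.10, edgeR adjusted p = 0.138), and Gins2, a part of the helicase (-1.25, edgeR adjusted p = 0.0695), did not pass either. Among the G1 genes, E2f1 fell by 2.43 ± 0.35 and Ccne1, the cyclin that starts S phase with CDK2, fell by 2.26 ± 0.51. Ccnd1, the cyclin that passes growth signals to CDK4 and CDK6, was at 213 and 209 CPM in HFSC and 250 and 259 CPM in EpdSC (-0.28 ± 0.29, edgeR adjusted p = 0.565), the smallest estimate among the 40 members.

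The wider cell cycle lists had the same direction. Of 41 further tested genes of the kinetochore, spindle and condensin 38 were lower and 0 higher, and of 38 further replication genes 19 were lower and 0 higher. Foxm1, an activator of mitotic genes, fell by 3.45 ± 0.41, Mybl2, which encodes B-MYB, fell by 2.49 ± 0.43, and the late repressors of E2F targets E2f7 (-4.18 ± 0.52) and E2f8 (-3.59 ± 0.36) were lower too. Of 7 tested inhibitors of cyclin-dependent kinases 1 was higher and 2 were lower. The higher one was Cdkn1c, which encodes p57, at 14.1 and 14.6 CPM in HFSC, against 2.56 and 1.81 CPM in EpdSC (2.70 ± 0.39, edgeR adjusted p = 0.00883). Cdkn3, a phosphatase that acts on CDKs and is itself made in dividing cells, fell by 3.05 ± 0.55.

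Without BK HFSC 2, 23 members were called, all lower in HFSC. Markers that respond to the stress of cell dissociation were also lower in these HFSC, 9 of 12, with a sum of 4710 to 6447 CPM in HFSC, against 28390 to 33960 CPM in EpdSC. Of 6 tested fibroblast markers 4 were higher, with sums of 1376 to 1645 CPM in HFSC, against 168 to 309 CPM in EpdSC. Most of that sum was Sparc, at a mean of 1418 CPM in HFSC, against 236 CPM in EpdSC. Of 7 melanocyte markers 4 were higher, with sums of 103 to 180 CPM in HFSC, against 8.73 to 20.5 CPM in EpdSC. The part of all these markers in the result was not tested.

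In CL the same gates gave no such difference. Of the 40 members 1 was higher and 0 were lower in HFSC than in EpdSC, against 7.19% and 3.63% of the 14831 genes tested, and the median was 0.15. The 1 gene was Rrm2, at 27.0 and 28.2 CPM in HFSC, against 15.7 and 15.0 CPM in EpdSC (0.84 ± 0.21, edgeR adjusted p = 0.0396). Cdk1 was at 35.2 and 37.1 CPM in HFSC and 25.2 and 26.4 CPM in EpdSC, and Mki67 at 174 and 122 CPM in HFSC and 135 and 144 CPM in EpdSC. Both CL populations thus lay between the BK HFSC and the BK EpdSC for Cdk1. No member differed more than 2-fold between the libraries of a pair. The count was 0 without any 1 of the HFSC, EpdSC or wounded HFSC libraries and 1 without wounded EpdSC A or B.

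The difference between the sets was itself tested, as HFSC minus EpdSC in BK minus the same in CL. It was below 0 for 28 members and above 0 for 0 at the threshold, against 2.06% and 0.323% of the 16116 genes tested, with a median of -3.00. The 28 were 19 mitotic, 7 S phase and 2 G1 genes. Cdk1 (-3.44 ± 0.49, edgeR adjusted p = 0.00622), Bub1b, a kinase-like protein of the spindle checkpoint (-3.35 ± 0.38), Birc5 (-3.40 ± 0.39) and Aurka, a kinase of the spindle poles (-3.05 ± 0.38), had small errors relative to their size, and so had Foxm1 (-3.55 ± 0.40) and E2f8 (-4.08 ± 0.42). Mki67 (-4.12 ± 1.31, edgeR adjusted p = 0.182) did not pass. The count depended on single libraries of 2 per group: it was 4 without CL EpdSC A, 9 without CL EpdSC B, 13 without BK HFSC 2, and 16 and 17 without CL HFSC B and A. The sum of dissociation stress markers, 4710 to 6447 CPM in BK HFSC, was 24010 to 40580 CPM in CL HFSC and 41860 to 46360 CPM in CL EpdSC. The labels give no difference in gate, age or strain between the sets, and what separates them was not tested.

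DS held a further pair of skin libraries, 1 each, so there was no test. Mki67 was at 50.9 CPM in Tbr HFSC and 443 CPM in Tbr EpdSC, and Cdk1 at 23.4 CPM in Tbr HFSC and 79.1 CPM in Tbr EpdSC. The mitotic score was 3.67 in Tbr HFSC and 5.96 in Tbr EpdSC, the order of the BK pair. The S phase score was 4.48 in Tbr HFSC and 5.07 in Tbr EpdSC. Rrm2 was at 36.6 CPM in Tbr HFSC and 33.9 CPM in Tbr EpdSC, and Ccne1 at 2.80 CPM in Tbr HFSC and 2.85 CPM in Tbr EpdSC. Other replication and G1 genes were lower in Tbr HFSC, with Mcm5 at 14.6 CPM in Tbr HFSC and 41.9 CPM in Tbr EpdSC, and E2f1 at 5.55 CPM in Tbr HFSC and 13.6 CPM in Tbr EpdSC.

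**Figure D3:**
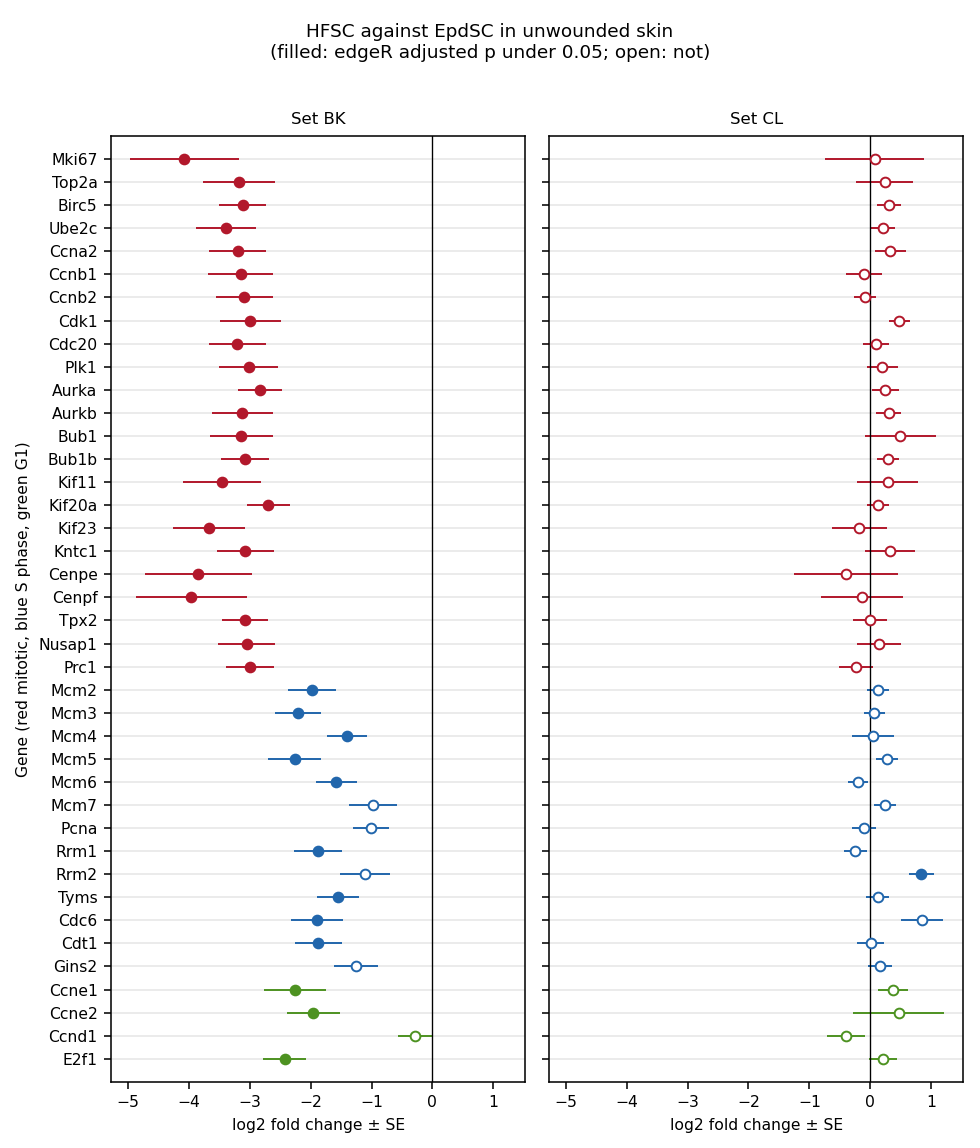
Log2 fold change of HFSC over EpdSC for the 40 genes with its standard error, in BK and in CL, with filled points for edgeR adjusted p under 0.05. Of the BK points 35 are filled and all lie left of 0, while in CL 1 point is filled, Rrm2 at 0.84.

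After wounding, about as many mitotic genes rose in HFSC as in EpdSC of CL, among them Cdk1, Plk1, Ccnb2 and Birc5 in both, while Mki67, Top2a, Bub1, Kif11, Nusap1, Prc1 and Cenpe were called in neither. The wounded cells were sorted by YFP and the unwounded cells by CD34 and Sca1. Wounding and sort gate thus cannot be told apart in these comparisons. In wounded HFSC against HFSC, 15 members rose and 2 fell, against 21.4% higher and 24.7% lower among the 14831 genes tested. The 15 were 12 of 23 mitotic genes, 2 of 13 S phase genes and 1 of 4 G1 genes. The median was 1.01 for the mitotic genes and 0.27 for the S phase genes, beside -0.10 for all genes tested. In wounded EpdSC against EpdSC, 21 members rose and 3 fell, against 30.2% higher and 28.2% lower. These were 13 mitotic genes that rose and 3 that fell, 7 S phase genes that rose and 1 G1 gene that rose, with medians of 0.99 for the mitotic and 0.59 for the S phase genes.

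Mitotic regulators rose in both. Ccnb2, a B cyclin, was at 68.9 and 58.7 CPM in wounded HFSC, against 20.4 and 20.9 CPM in HFSC (1.62 ± 0.19, edgeR adjusted p = 0.000434). It was at 67.4 and 65.0 CPM in wounded EpdSC, against 19.9 and 23.6 CPM in EpdSC (1.59 ± 0.19). Both wounded libraries of each lineage lay far above both unwounded ones. Plk1 was at 28.9 and 24.9 CPM in wounded HFSC, against 7.60 and 10.5 CPM in HFSC (1.56 ± 0.25). It was at 45.8 and 39.2 CPM in wounded EpdSC, against 6.83 and 8.93 CPM in EpdSC (2.42 ± 0.26, edgeR adjusted p = 0.000252). Birc5 rose by 1.52 ± 0.20 in wounded HFSC and by 2.04 ± 0.20 in wounded EpdSC, and Ube2c by 1.45 ± 0.20 and 2.05 ± 0.21 in the same order. Tpx2, which activates AURKA on the spindle, had its rise of 1.67 ± 0.28 in wounded HFSC among the largest of the mitotic genes there.

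Rrm2 and Ccne1 rose in both lineages too. Rrm2 was at 85.0 and 87.3 CPM in wounded HFSC, against 27.0 and 28.2 CPM in HFSC (1.63 ± 0.21). It was at 69.0 and 93.4 CPM in wounded EpdSC, against 15.7 and 15.0 CPM in EpdSC (2.39 ± 0.22, edgeR adjusted p = 0.000119). Ccne1 was at 16.0 and 13.8 CPM in wounded HFSC, against 4.23 and 3.62 CPM in HFSC (1.92 ± 0.24, edgeR adjusted p = 0.000693). Its level was 17.2 and 19.2 CPM in wounded EpdSC, against 3.23 and 2.76 CPM in EpdSC (2.58 ± 0.26). The wounded libraries of both lineages were well above the unwounded ones for both genes. Ccne2, the other E cyclin, was at 3.43 and 8.72 CPM in wounded HFSC and 4.94 and 3.81 CPM in HFSC, with overlapping libraries.

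Other members did not follow. Mki67 was at 49.1 and 230 CPM in wounded HFSC, on either side of 174 and 122 CPM in HFSC. It was at 13.3 and 69.4 CPM in wounded EpdSC, against 135 and 144 CPM in EpdSC (-1.75 ± 0.84, edgeR adjusted p = 0.107). Cenpf was at 5.48 and 13.0 CPM in wounded EpdSC, against 42.4 and 43.8 CPM in EpdSC, and fell by 2.23 ± 0.71 on the log2 scale (edgeR adjusted p = 0.0281). Kntc1, a kinetochore protein of the spindle checkpoint (-1.46 ± 0.43), and Kif23, a motor of cytokinesis (-1.41 ± 0.46), also fell in wounded EpdSC. The wounded EpdSC libraries were thus high for Ccnb2 and Plk1 and low for Cenpf, 3 genes of mitosis.

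In wounded EpdSC, members in longer genes tended to have lower estimates, and the 2 libraries differed. Among the members with the longest spans, the estimate was -1.46 for Kntc1 (71902 bases), -1.55 for Cenpe (60978 bases) and -2.23 for Cenpf (47502 bases). It was 0.91 for Tpx2 (47358 bases), -0.04 for Kif11 (45482 bases) and 0.99 for Bub1b (43391 bases). In wounded EpdSC, 11 members were more than 2-fold higher in library B than in library A and 0 the other way, and in wounded HFSC 5 were, all higher in B. Over 9526 genes the difference of wounded EpdSC from EpdSC had a Spearman correlation of -0.40 with the span of the gene in the genome, and over 39 members -0.52. Between libraries A and B of wounded EpdSC it was -0.51 over all genes and -0.55 over the members, so library A was lower in long genes. For wounded HFSC against HFSC the correlations were -0.12 and -0.18. Genes are not independent, and the values are a description whose part in the result was not tested. With this trend removed, a step chosen after seeing the data, Cenpf (-1.76, edgeR adjusted p = 0.0315), Kif23 (-1.18, edgeR adjusted p = 0.0263) and Kntc1 (-0.82, edgeR adjusted p = 0.0423) were still called lower. No mitotic gene was called lower without EpdSC A or without EpdSC B, and the count of members called in wounded EpdSC was 15 without EpdSC A. It was 23 higher and 2 lower without wounded EpdSC A, and 20 higher and 12 lower without wounded EpdSC B, which leaves the library with the low long genes.

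Regulators outside the 40 members changed in several ways. Foxm1 was at 18.3 and 15.9 CPM in wounded HFSC and 24.1 and 23.9 CPM in HFSC (-0.50 ± 0.19, edgeR adjusted p = 0.0586), and so was not called while many mitotic genes rose. In wounded EpdSC it was at 18.4 and 18.5 CPM, against 21.9 and 21.9 CPM in EpdSC (-0.26, edgeR adjusted p = 0.255). E2f8 rose by 1.60 ± 0.30 in wounded HFSC and by 1.80 ± 0.31 in wounded EpdSC. Of 8 CDK inhibitors 3 rose in each lineage, and 2 fell in wounded HFSC. Cdkn2b, which encodes p15, was at 50.03 and 47.2 CPM in wounded HFSC, against 3.20 and 5.66 CPM in HFSC (3.45 ± 0.30, edgeR adjusted p = 0.00014). Its level was 47.3 and 43.5 CPM in wounded EpdSC, against 5.20 and 4.37 CPM in EpdSC (3.23 ± 0.30). Ccnd2, a D cyclin, fell by 2.92 ± 0.45 in wounded HFSC and fell by 4.04 ± 0.47 in wounded EpdSC, while Ccnd1 was between 82.7 and 147 CPM in the 4 wounded and between 96.4 and 163 CPM in the 4 unwounded libraries. Of 41 other tested genes of the kinetochore, spindle and condensin 14 rose and 1 fell in each lineage. Of 38 other replication genes 5 rose and 4 fell in wounded HFSC, and 13 rose and 4 fell in wounded EpdSC. Over all genes tested, 21.4% rose and 24.7% fell in wounded HFSC, and 30.2% rose and 28.2% fell in wounded EpdSC. The rises of both lists in wounded EpdSC were thus near the share over all genes. In wounded HFSC the other replication genes rose less often than all genes.

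Markers of other cell types moved with the wounded EpdSC. All 10 leukocyte markers were higher there, with a sum of 4179 to 5393 CPM in wounded EpdSC, against 30.4 to 46.0 CPM in EpdSC, and so were all 8 fibroblast markers. In wounded HFSC the leukocyte sum was 37.8 to 43.6 CPM, against 54.9 to 142.8 CPM in HFSC. Markers of suprabasal differentiation were higher in both lineages, 3 of 6 with 1 lower in wounded HFSC and 4 of 6 in wounded EpdSC. Their sums were 31270 to 37510 CPM in wounded HFSC, against 2503 to 3752 CPM in HFSC, and 22930 to 28920 CPM in wounded EpdSC, against 5984 to 11190 CPM in EpdSC. Dissociation stress markers were lower after wounding in both lineages, with sums of 786 to 1420 CPM in the 4 wounded libraries, against 24010 to 46360 CPM in the 4 unwounded ones. The part of these markers in the result was not tested.

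**Figure D4:**
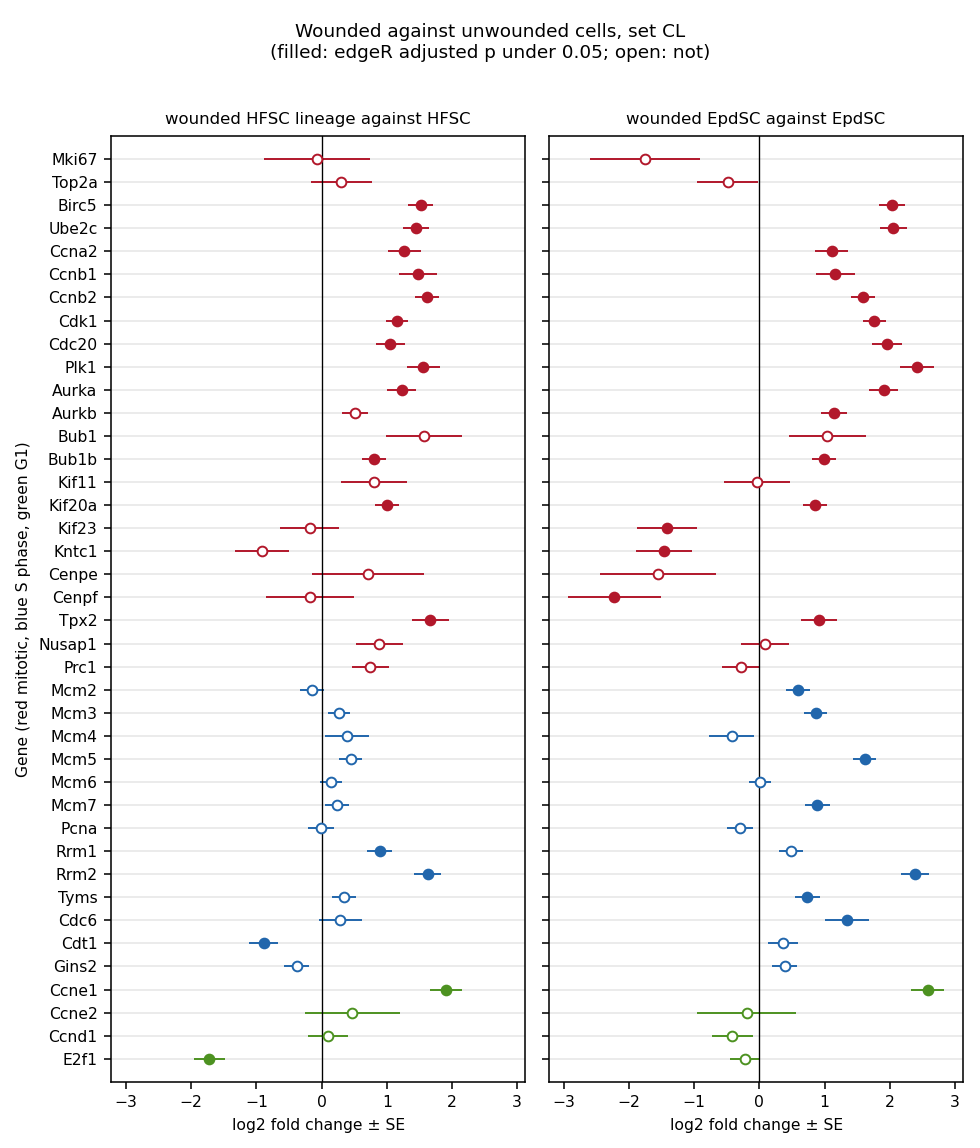
Log2 fold change of wounded over unwounded cells for the 40 genes with its standard error, in the HFSC and EpdSC lineages of CL, with filled points for edgeR adjusted p under 0.05. Plk1, Birc5, Rrm2 and Ccne1 lie right of 0 in both panels, and E2f1 (-1.72) and Cdt1 (-0.89) lie left of 0 with filled points in the HFSC panel only.

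Between the 2 wounded lineages few members were called. The differences between library A and library B of these 2 groups had a correlation of 0.76 over 10590 genes. The test, which does not pair libraries, counts such a shared shift as spread, so few calls do not show that few members differ. Against wounded EpdSC, 4 of 40 members were lower and 0 higher in wounded HFSC, against 12.4% and 6.80% of all genes tested, so the members were called no more often than other genes. E2f1 was at 5.41 and 6.63 CPM in wounded HFSC, against 16.7 and 12.7 CPM in wounded EpdSC (-1.28 ± 0.24, edgeR adjusted p = 0.0149). Cdt1, which loads the helicase on DNA, was at 11.9 and 10.99 CPM in wounded HFSC, against 28.0 and 26.3 CPM in wounded EpdSC (-1.25 ± 0.23, edgeR adjusted p = 0.0144). Mcm5 was at 90.8 and 90.3 CPM in wounded HFSC, against 182 and 155 CPM in wounded EpdSC (-0.89 ± 0.18), and Cdc20, the activator of the anaphase-promoting complex, was the fourth (-0.80 ± 0.22, edgeR adjusted p = 0.0439). Some members that did not pass were higher in wounded HFSC within each letter, although letters were not taken to pair libraries. Mki67 was at 49.1 CPM in wounded HFSC A, against 13.3 CPM in wounded EpdSC A, and at 230 CPM in wounded HFSC B, against 69.4 CPM in wounded EpdSC B. Kif11 was at 43.6 CPM in wounded HFSC A, against 12.45 CPM in wounded EpdSC A, and at 69.2 CPM in wounded HFSC B, against 38.9 CPM in wounded EpdSC B. In both genes library A was the lower one of each group. Across letters the groups overlapped for Mki67, with wounded HFSC A under wounded EpdSC B, and did not overlap for Kif11. The count was 20 without wounded EpdSC B, of which 14 were higher in wounded HFSC, and 0 without wounded HFSC B, 1 without wounded HFSC A and 2 without EpdSC A or B.

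The wound responses themselves were compared too, in a test on the same 8 libraries. The response in HFSC minus that in EpdSC was below 0 for 3 members and above 0 for 0, against 10.5% and 5.31% of all genes tested, again no more often than other genes. They were E2f1 (-1.50 ± 0.33, edgeR adjusted p = 0.0238), Cdt1 (-1.25 ± 0.32, edgeR adjusted p = 0.0383) and Mcm5 (-1.17 ± 0.25, edgeR adjusted p = 0.0201). E2f1 and Cdt1 fell in wounded HFSC (-1.72 ± 0.24 and -0.89 ± 0.23), and Mcm5 rose in wounded EpdSC (1.62 ± 0.18). Mybl2 (-1.95 ± 0.41) and Cdkn1c (-2.69 ± 0.64) also differed between the responses. Cdkn1c was at 0.867 and 0.493 CPM in wounded HFSC, against 4.26 and 5.43 CPM in HFSC, and at 1.15 and 1.13 CPM in wounded EpdSC, against 1.38 and 1.09 CPM in EpdSC. The count was 19 without wounded EpdSC B, of which 12 were above 0. It was 1 without HFSC A or wounded HFSC A, and 0 without HFSC B, EpdSC A, EpdSC B or wounded HFSC B.

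BK had 1 library of wounded EpdSC, which was set against the 2 EpdSC libraries on the assumption that it varies like them. Its sort gate also differed from theirs, so wounding and gate cannot be told apart here either. Of the 40 members 0 were higher and 1 was lower, against 1.77% and 6.21% of all genes tested. The 1 gene was Ccnd1, at 78.1 CPM in wounded EpdSC, against 250 and 259 CPM in EpdSC (-1.77 ± 0.38, edgeR adjusted p = 0.0488). Cdk1 was at 172 CPM in wounded EpdSC and 143 and 82.5 CPM in EpdSC, and Birc5 at 97.8 CPM in wounded EpdSC and 59.9 and 42.9 CPM in EpdSC. The wounded library was above both EpdSC libraries for Cdk1 and Birc5, and neither passed the test. Other mitotic genes went the other way. Plk1 was at 19.6 CPM in wounded EpdSC, against 54.2 and 27.1 CPM in EpdSC. Aurkb was at 18.0 CPM in wounded EpdSC, against 47.7 and 36.1 CPM in EpdSC. Foxm1 fell by 2.70 ± 0.53 (edgeR adjusted p = 0.0465), and E2f2, another E2F activator, fell by 2.13 ± 0.41. The count of members was 11 and 13 without BK EpdSC 1 and 2, and 0 without BK HFSC 1 or 2.

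Tumour cells of the TbrKO genotype had less of nearly all cell cycle genes than HRas tumour cells. The HRas tumours serve as the reference for both other genotypes, and each genotype was represented by 1 high and 1 low library, compared within gates. Of the 40 members 37 were lower and 0 higher in TbrKO, against 16.9% lower and 16.2% higher among the 15113 genes tested. All 23 mitotic, 10 of 13 S phase and all 4 G1 genes were lower, and the median was -1.51. For 38 members both TbrKO libraries lay below both HRas libraries, the exceptions being Mcm7 and Cdt1, against 34.9% of all genes tested. The count was 14 without the HRas high library and 21 without the HRas low library, all lower in TbrKO.

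The G1 cyclins Ccne1 and Ccnd1 had the largest falls. Ccne1 was at 4.36 and 3.56 CPM in TbrKO high and low cells, against 45.3 and 41.2 CPM in HRas high and low cells (-3.47 ± 0.18, edgeR adjusted p = 0.00148). Ccnd1 was at 114 and 188 CPM in TbrKO cells, against 1101 and 850 CPM in HRas cells (-2.68 ± 0.39, edgeR adjusted p = 0.00848). E2f1 was at 8.42 and 7.69 CPM in TbrKO cells, against 31.6 and 26.5 CPM in HRas cells (-1.86 ± 0.17). The gates differed little beside the gap between the genotypes. Among S phase genes Rrm2 was at 34.4 and 23.3 CPM in TbrKO cells, against 156 and 117 CPM in HRas cells (-2.27 ± 0.14), and Mcm5 (-1.79 ± 0.16) and Mcm6 (-0.79 ± 0.16) fell too. Mcm7 (-0.49 ± 0.14) and Rrm1 (-0.50 ± 0.14) fell least among those called, and Pcna (-0.51, edgeR adjusted p = 0.0737), Cdt1 (-0.60, edgeR adjusted p = 0.0509) and Gins2 (-0.75, edgeR adjusted p = 0.0646) did not pass.

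Mitotic genes fell over a range of sizes. Bub1, a kinase of the spindle checkpoint, was at 14.5 and 10.2 CPM in TbrKO cells, against 70.1 and 47.5 CPM in HRas cells (-2.26 ± 0.18, edgeR adjusted p = 0.00273). Ube2c fell by 2.12 ± 0.15 and Cdk1 fell by 2.04 ± 0.17. Mki67 was at 71.4 and 54.8 CPM in TbrKO cells, against 192 and 127 CPM in HRas cells (-1.33 ± 0.15). The smallest falls were those of Nusap1 (-0.70 ± 0.19, edgeR adjusted p = 0.0399) and Prc1 (-0.88 ± 0.15), which encode proteins that bundle microtubules. Even for these the TbrKO libraries were the lower ones within each gate.

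Of 41 further tested genes of the kinetochore, spindle and condensin 36 were lower and 0 higher, and of 38 further replication genes 26 were lower and 1 higher. Foxm1 (-1.81 ± 0.21), Mybl2 (-1.61 ± 0.31), E2f8 (-2.67 ± 0.19) and Ccnd2 (-2.65 ± 0.15) fell too. Among the CDK inhibitors 2 were higher and 3 lower. Cdkn1a, which encodes p21, was at 371 and 590 CPM in TbrKO cells, against 246 and 303 CPM in HRas cells (0.76 ± 0.19, edgeR adjusted p = 0.0363), and Cdkn1b, which encodes p27, was higher by 0.88 ± 0.21. Cdkn2a, which encodes p16 and ARF, was at 17.2 and 14.6 CPM in TbrKO cells, against 82.7 and 92.1 CPM in HRas cells (-2.47 ± 0.16), and Cdkn2b fell by 1.22 ± 0.29. Dissociation stress markers were higher in TbrKO, 9 of 12, with sums of 19610 and 12980 CPM in TbrKO cells, against 5108 and 5660 CPM in HRas cells, and 4 of 5 endothelial markers were lower. Their part in the result was not tested.

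HRas TbrKO tumour cells did not differ detectably from HRas cells in these genes. Of the 40 members 0 were higher and 0 lower with edgeR, and 0 with DESeq2, against 0% of the 15113 genes tested in either direction with edgeR. An unadjusted p under 0.05 was found for 5 members, and 37 of 40 estimates were below 0, with a median of -0.18. Over all genes the unadjusted p was under 0.05 for 1701, or 11.3%, and 407 were called by DESeq2. Cdk1 was at 140 and 80.1 CPM in HRas TbrKO high and low cells and 131 and 105 CPM in HRas high and low cells. Mki67 was at 142 and 92.8 CPM in HRas TbrKO cells and 192 and 127 CPM in HRas cells (-0.44 ± 0.15, edgeR adjusted p = 0.391). Ccne1 was at 52.0 and 38.8 CPM in HRas TbrKO cells, on either side of the HRas cells. The HRas and HRas TbrKO cells were thus close to each other and well above TbrKO for Ccne1.

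Between the gates, all 40 members had estimates above 0 in the integrin alpha 6 high cells, few of which passed. Of the 40 members 4 were higher and 0 lower, against 0.152% and 3.00% of all genes tested, with a median of 0.59 beside 0.05 for all genes. An unadjusted p under 0.05 with a value above 0 was found for 33 members, against 8.87% of all genes tested. The 4 were Cdc20 (0.70 ± 0.11), Bub1b (0.73 ± 0.12), Mcm2 (0.73 ± 0.11, edgeR adjusted p = 0.0435) and Mcm3 (0.71 ± 0.11). Mcm2 was at 138, 109 and 47.8 CPM in the high cells of HRas, HRas TbrKO and TbrKO tumours, against 84.7, 63.7 and 31.5 CPM in the low cells of the same tumours. Cdc20 was at 76.7, 72.4 and 30.4 CPM in the high cells, against 51.0, 43.6 and 19.1 CPM in the low cells. Each tumour had the higher value of these 2 genes in its high gate, although the gates overlap between genotypes. Ccnd1 did not follow in every tumour, with 114 CPM in TbrKO high cells, against 188 CPM in TbrKO low cells.

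The gate count was sensitive to the libraries. It was 0 without any 1 of the 4 libraries of HRas and HRas TbrKO tumours, and 35 and 31 without the TbrKO high and low library. Incenp, a subunit of the chromosomal passenger complex, was the 1 of 41 further kinetochore, spindle and condensin genes that was higher (0.65 ± 0.11). Of 8 fibroblast markers 7 were lower in the high cells, with sums of 3232, 1482 and 2832 CPM in the high cells of HRas, HRas TbrKO and TbrKO tumours, against 13680, 11390 and 6728 CPM in the low cells. Of 9 leukocyte markers 7 were lower, with sums of 340, 533 and 239 CPM in the high cells, against 1179, 1828 and 750 CPM in the low cells. Their part in the result was not tested.

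**Figure D5:**
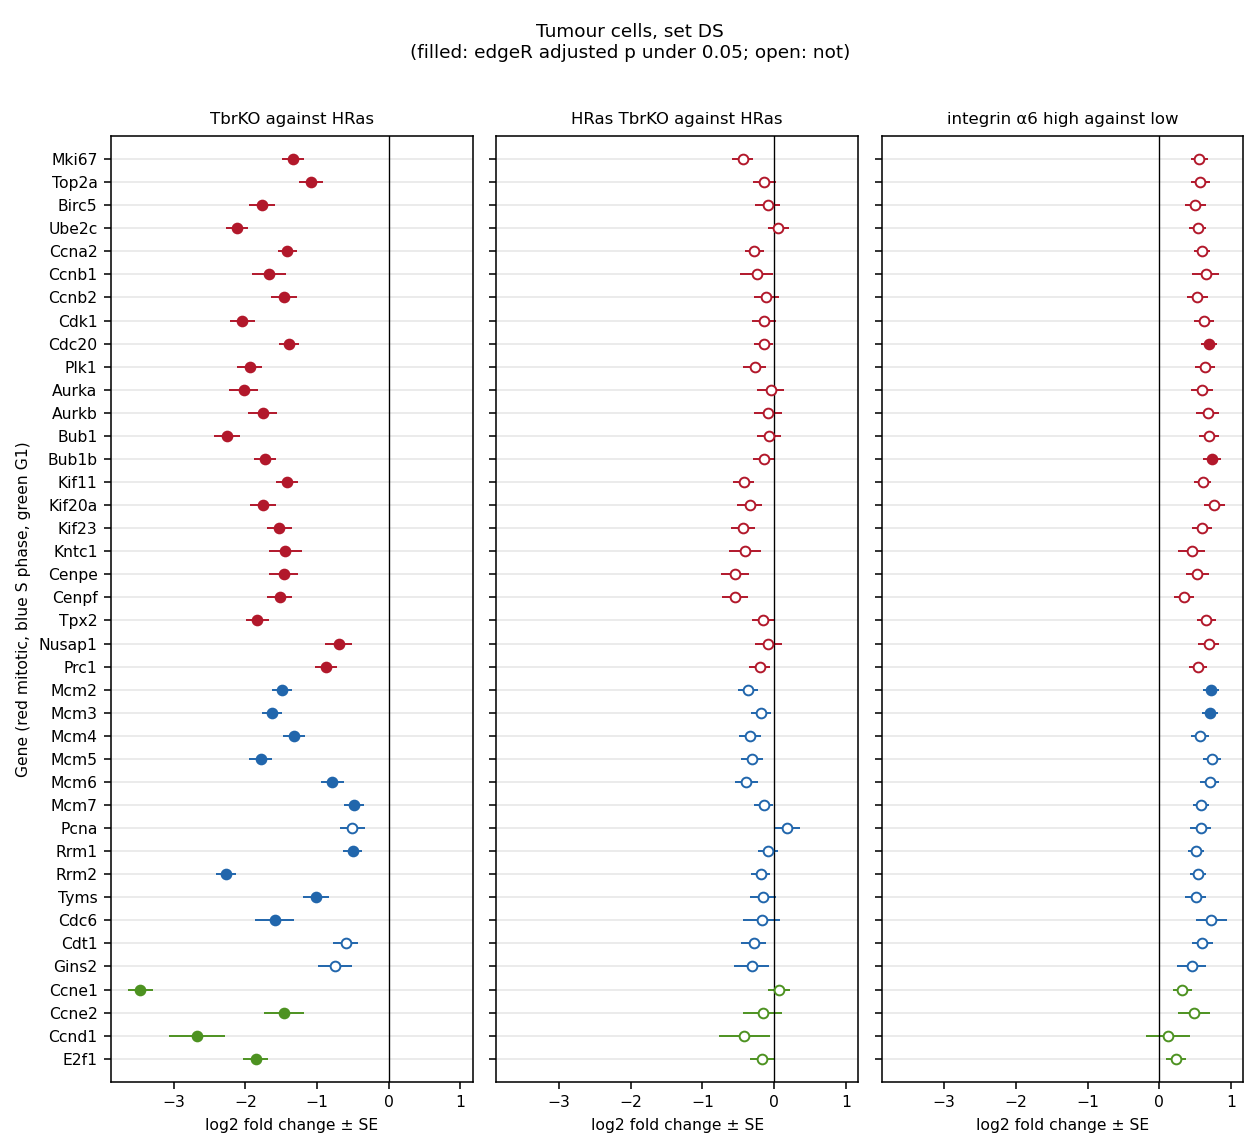
Log2 fold change with its standard error for the 40 genes in the tumour libraries, as TbrKO over HRas, HRas TbrKO over HRas and integrin alpha 6 high over low, with filled points for edgeR adjusted p under 0.05. In the first panel 37 points are filled, all left of 0 and led by Ccne1 at -3.47, in the second none, and in the third 4, all right of 0.

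Against the 2 Tbr skin stem cell libraries, the 3 integrin alpha 6 high tumour libraries had 2 of 40 members higher and 0 lower. Over the 15471 genes tested the shares were 11.9% and 9.56%, so the members were called no more often than other genes. Mcm7 was at 54.5, 49.0 and 40.4 CPM in the HRas, HRas TbrKO and TbrKO tumour cells, against 20.1 and 26.6 CPM in Tbr HFSC and Tbr EpdSC (1.05 ± 0.27, edgeR adjusted p = 0.0337). Cdt1 was at 33.8, 25.6 and 24.3 CPM in the tumour cells, against 7.10 and 13.3 CPM in the skin cells (1.45 ± 0.39, edgeR adjusted p = 0.0374). For these genes all 3 tumours lay above both skin populations. Ccne1 was at 45.3, 52.0 and 4.36 CPM in the tumour cells, against 2.80 and 2.85 CPM in the skin cells (3.61 ± 1.35, edgeR adjusted p = 0.0904). The groups here joined unlike libraries, TbrKO with the other tumours and HFSC with EpdSC, and the spread of most members within each group was large. All 8 fibroblast markers were higher in the tumour cells, with sums of 3232, 1482 and 2832 CPM in the HRas, HRas TbrKO and TbrKO tumour cells, against 404 and 164 CPM in Tbr HFSC and Tbr EpdSC, and 1 of 10 leukocyte markers was higher. Their part in the result was not tested. Without the TbrKO high library 11 members were called, and without any 1 of the HRas, HRas TbrKO or Tbr skin libraries 0 were.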

How the data were processed

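The authors deposited whole-number counts of reads per gene for 21 RNA libraries, with no normalisation. Per the labels' protocols, the libraries were TruSeq preparations read as single reads of 51 cycles. The submitters' processing notes name MACS2 2.1.1.20160309, STAR, Picard and Bowtie, and the genome build mm10. How reads were assigned to genes, and whether by strand, is not given in the sources used here, so reads of a gene and of an overlapping antisense gene cannot be told apart. A row of totals was kept out, and 0 library columns were unmatched. For ATAC-seq, peaks were called with MACS2, per the file headers, on 1 pooled sample per population of 11140895 to 29579794 fragments. The deposited lists give the pileup signal at the summit, a fold enrichment ratio over the local background and a -log10 q-value, all as the peak caller wrote them.

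Groups were taken from the titles and sort labels. The 40 members and the other gene lists were chosen with earlier results of these data known, so nothing here supports them independently. Counts were tested over all genes with edgeR 4.0.16 in R 4.3.3 (TMM scaling, filterByExpr with a minimum count of 10, quasi-likelihood F test, Benjamini-Hochberg adjustment over all genes tested, threshold 0.05), and every adjusted p in the text is from that test. A fold change is on the log2 scale, the group named before "against" over the one after it, with a standard error of the fold change over √F. The 8 CL libraries, the 5 BK libraries and the 8 DS libraries were each fitted together, except that tumours were compared in a fit of the 6 tumour libraries with genotype and gate, and the difference between sets in a fit of CL and BK. Levels are CPM after TMM scaling of all 21 libraries, and the score is the mean log2(CPM + 1), with a pseudocount of 1. The test was tried on simulated data. Promoters came from RefSeq (GRCm38.p6). The tables were handled with Python 3.11.15, pandas 2.3.3 and SciPy 1.17.1, figures were drawn with matplotlib 3.10.9, and limma 3.58.1 is loaded with edgeR.

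Any member could be named. Of each other list, up to 4 called genes with the largest change per comparison could be named, with Foxm1, Mybl2, E2f7, E2f8, Cdkn1a, Cdkn1b, Cdkn1c and Cdkn2a whatever their value. Other lists were E2F, pocket protein and DREAM factors, CDK inhibitors, other cyclins and CDKs, other kinetochore, spindle and condensin genes, other replication genes, and markers of other cell types. The deviations of same-lettered CL libraries from their group means had correlations between -0.454 and 0.76, the highest between the 2 wounded groups. Those of same-numbered BK libraries had a correlation of -0.31, and letters and numbers were not taken to pair libraries. Libraries of a group differed by more than sampling noise, and none was counted as a copy. Alternatives were DESeq2 1.42.0 and its size factors, no filter on low counts, a replicate block, only the libraries compared, each library left out, a second deposited count table with Ensembl IDs for CL, stricter peaks and wider windows, and, chosen after seeing the data, removal of a trend with gene span and a crossed block.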

Additional observations from a re-analysis of the deposited data

Results flagged for a closer look

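Chosen here because the same contrast gave different effects in 2 groups by a test of the difference itself (edgeR, adjusted p under 0.05), these results are given as values, with no explanation. No group held the 4 or more libraries that a check for outlying libraries needs.

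The wound response of the HFSC lineage minus that of EpdSC in CL was called for 3 of 40 members, all below 0, against 10.5% of all genes tested. They were E2f1 (-1.50), Cdt1 (-1.25) and Mcm5 (-1.17). The regulators Mybl2 (-1.95) and Cdkn1c (-2.69) were called too.

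HFSC minus EpdSC in BK minus the same in CL was called for 28 of 40 members, all below 0, against 2.06% of all genes tested. Among mitotic genes it was -3.44 for Cdk1, -3.40 for Birc5, -3.35 for Bub1b, -3.05 for Aurka and -2.79 for Kif20a, a motor of cytokinesis. Among S phase genes it was -2.51 for Mcm5 and -2.25 for Mcm3, and among G1 genes -2.62 for E2f1 and -2.61 for Ccne1. It was -4.08 for E2f8 and -3.55 for Foxm1.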

How the results depend on the processing

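No result for a single gene reversed, and several counts moved. Over 134 results for single genes and 1821 alternatives, 1570 stayed on the same side of the threshold, 204 lost the call, 47 gained it and 0 reversed. The members called in wounded HFSC against wounded EpdSC (4) were 7 with DESeq2's size factors, 9 with DESeq2, 1 with only the libraries compared, 18 with the crossed replicate block, and 0 to 20 with each library left out. The response difference (3) was 6 with DESeq2, 6 with the crossed block, and 0 to 19. HFSC against EpdSC in CL (1) was 0 with the replicate block, 0 with the span trend removed, and 0 to 1. Wounded EpdSC against EpdSC in BK (1) was 0 with DESeq2's size factors, 4 with DESeq2, 2 with no filter, 2 with the span trend removed, and 0 to 13. High against low tumour cells (4) was 2 with DESeq2's size factors, 28 with DESeq2, 8 with no filter, 0 with no genotype block, and 0 to 35. Tumour against Tbr skin cells (2) was 8 with DESeq2, 0 with the span trend removed, 0 with only the libraries compared, and 0 to 11. The cause was not tested in any of these. With each library left out, the range was 15 to 24 for wounded HFSC, 15 to 32 for wounded EpdSC in CL, 23 to 39 for HFSC against EpdSC in BK, 4 to 31 for the difference between the sets, 14 to 37 for TbrKO and 0 to 0 for HRas TbrKO. Libraries of a letter or number share only that name. With the replicate block the counts in CL were 17 for wounded HFSC, 25 for wounded EpdSC, 3 between the wounded groups and 2 for the response difference, and they were 35 in BK and 23 for the difference between the sets. DESeq2's size factors moved the median of all genes by 0.11 in wounded EpdSC of CL. The replicate block was not run for the BK wounded library, which is alone. Most groups held 1 or 2 libraries and each tumour gate 3, which limits the precision.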
